A study of Mus musculus with 6 samples.

Results

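The 43 genes described here encode the machinery of mitosis: the kinases that start it, the kinetochores, the spindle and the cytokinetic ring. They were taken by gene symbol from 57010 Ensembl gene IDs measured in Ba/F3 cells, all 43 were found with 1 ID each, and all 43 passed the filter of a mean of at least 1 TPM, a measure of transcript abundance scaled to transcript length and to the total of its library. Ba/F3, written Baf3 in the labels, is a mouse haematopoietic line that normally grows only with interleukin-3 and is widely used to study oncogenic kinases. The groups were 3 libraries of cells with an empty vector (genotype label WT) and 3 libraries of cells made to overexpress TPR-FGFR1 by lentivirus and selected with 5 µg/ml puromycin over 6 days. This fusion joins the nuclear pore protein TPR, which has a coiled coil, to the receptor tyrosine kinase FGFR1. The labels do not say whether the control cells were selected in the same way, whether interleukin-3 was present, from which species the fusion sequence was taken, how many clones each population held, or whether replicates were separate cultures. The tests below compare the groups with the spread among these 6 libraries, and that spread may be technical only.

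Mitosis is driven by CDK1 with its cyclins, which trigger chromosome condensation and spindle assembly. Kinetochores, built on centromeres that carry the histone variant CENP-A, bind microtubules through the NDC80 complex, and the spindle checkpoint holds back the anaphase-promoting complex until every chromosome is attached. Transcripts of most of these genes are low in G1 and accumulate in G2 and M. That cycle is set largely by 2 promoter elements, the cell cycle genes homology region (CHR), bound by the DREAM and MMB-FOXM1 complexes, and the CCAAT box, bound by the trimeric factor NF-Y. In a bulk measurement of an unsynchronised line, a smaller share of cells in mitosis and less RNA per mitotic cell cannot be told apart.

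Fgfr1, which marks the fusion as far as its sequence is assigned to the mouse gene, was low throughout, at 0.02, 0.04 and 0.05 TPM with the empty vector and 0.70, 0.58 and 1.26 TPM with the fusion (log2 fold change 0.82, SE 0.213, adjusted p = 0.0397; two-sided exact permutation p = 0.1, the smallest that 3 against 3 libraries allow). Values for libraries are given in the order of replicates 1, 2 and 3 throughout. The Fgfr1 call was lost on leaving out any 1 of the 6 libraries (log2 fold change 0.66 to 0.92). The cells are labelled as B lymphocytes, but only 1 of 12 B-cell markers (Cd79b) averaged 1 TPM or more, and Rag1 and Rag2 were at 0 in all 6 libraries; the summed level of the 12 markers was 6.54 to 7.35 TPM with the empty vector and 5.11 to 7.88 TPM with the fusion. Of 12 myeloid and mast cell markers 5 reached 1 TPM, with Kit and Cebpa at 0, while 0 of 8 T-cell and 0 of 6 fibroblast markers did so. All 5 of these myeloid and mast cell markers were lower in every fusion library than in any control, against 20.8% of all tested genes. Their log2 fold changes were −1.41 to −0.23 with a median of −0.52. Of them 2, Cebpe and Lyz2, were called, against 10.0% of all tested genes called lower. After correction for GC content and transcript length 4 were called lower. Without TPR-FGFR1 replicate 3 the count was 3, and without any other 1 library it was 0. The summed level of the 12 myeloid and mast cell markers was 266 to 276 TPM with the empty vector and 158 to 238 TPM with the fusion, and its part in the results below was not tested. TPM values hold no read number, and the depth of each library is therefore unknown; 12679 to 12839 genes reached 1 TPM in each library.

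TPR-FGFR1 replicate 3 stood apart from replicates 1 and 2 in ways that touch the results below. Over all tested genes it correlated with fusion replicates 1 and 2 at 0.9635 and 0.962. Its correlations with empty vector replicates 1, 2 and 3 were higher, at 0.966, 0.9657 and 0.9661. It was the fusion library nearest to the empty vector mean in 57.6% of all tested genes and in 51.2% of the 43 members. Relative to the empty vector mean, genes in the fifth of highest GC content (54.7% or more) stood below those in the fifth of lowest GC content (43.1% or less) by a median log2 difference of −0.69 in replicate 1 and −0.86 in replicate 2, but by only −0.07 in replicate 3. For that reason results for single genes are also given without TPR-FGFR1 replicate 3 and after each library was corrected for GC content and transcript length (called the GC correction below), where either of these changes a call. The part of GC content in the differences was not tested.

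The promoters of these genes carry the marks of the G2 and M programme in their sequence. RefSeq promoter windows, from 250 bases before to 50 bases after the transcription start, were given for 35 of the 43 genes and for 27025 mouse genes in all. On either strand, the CHR element TTTGAA occurred in 27 of the 35 windows (77.1%, against 18.1% of all windows) and its variant TTTAAA in 9 (25.7% against 13.2%). The pentamer CCAAT was present in 28 (80%, against 37.9%), and at least 2 copies in 18 (51.4% against 12.2%). CHR and CCAAT matches occurred together in 26 windows (74.3%), against 10.9% of all windows. The motif GGCGGGAA, a site form bound by E2F factors, was in 0 of the 35 windows and in 2.24% of all windows, which says only that these letters are not in these windows.

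Places of the matches were counted in the windows of the members only, so no share over all windows stands beside them. Of 44 CHR matches, 31 lay within 50 bases of the start on either side, and of 61 CCAAT matches, 40 began within the 100 bases before it. A CHR match was present in 4 of the 6 windows of genes that rose, in both windows of genes that fell and in 24 of the 27 windows of genes that were not called. For CCAAT these counts were 3, 1 and 24.

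Promoters of 6 members are shown, from RefSeq on build GRCm38.p6, because they span the range of changes described below: Anln and Cenpa, the rises of smallest adjusted p, Ndc80 and Ube2c, the 2 falls, Cdk1 as a gene that was not called, and Spc25, which was added after its values were seen because it is the partner of Ndc80 in 1 complex. Each runs 5′ to 3′ on the coding strand, and capitals mark CHR matches (TTTGAA or TTTAAA) and CCAAT matches, or their reverse complements. They lie at chr9:22389157-22389456 (minus strand, Anln), chr5:30666636-30666935 (plus, Cenpa), chr2:69206164-69206463 (minus, Spc25), chr17:71526808-71527107 (minus, Ndc80), chr2:164769679-164769978 (plus, Ube2c) and chr10:69352863-69353162 (minus, Cdk1).
Anln: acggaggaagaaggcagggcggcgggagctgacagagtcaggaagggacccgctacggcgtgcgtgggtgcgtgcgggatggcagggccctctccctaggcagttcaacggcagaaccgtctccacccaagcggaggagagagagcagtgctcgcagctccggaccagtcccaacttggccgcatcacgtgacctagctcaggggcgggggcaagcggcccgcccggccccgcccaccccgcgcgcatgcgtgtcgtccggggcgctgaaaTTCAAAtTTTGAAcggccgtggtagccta
Cenpa: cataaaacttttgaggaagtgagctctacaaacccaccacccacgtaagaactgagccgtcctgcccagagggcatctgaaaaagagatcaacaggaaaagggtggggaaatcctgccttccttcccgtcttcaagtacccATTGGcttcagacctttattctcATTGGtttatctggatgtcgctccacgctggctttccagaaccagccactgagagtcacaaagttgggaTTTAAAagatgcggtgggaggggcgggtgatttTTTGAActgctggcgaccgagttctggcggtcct
Spc25: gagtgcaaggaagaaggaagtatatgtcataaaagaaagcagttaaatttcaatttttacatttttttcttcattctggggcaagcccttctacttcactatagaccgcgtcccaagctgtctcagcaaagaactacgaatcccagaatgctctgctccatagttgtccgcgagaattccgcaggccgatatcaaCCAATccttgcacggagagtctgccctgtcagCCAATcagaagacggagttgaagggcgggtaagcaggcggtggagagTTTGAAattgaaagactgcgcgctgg
Ndc80: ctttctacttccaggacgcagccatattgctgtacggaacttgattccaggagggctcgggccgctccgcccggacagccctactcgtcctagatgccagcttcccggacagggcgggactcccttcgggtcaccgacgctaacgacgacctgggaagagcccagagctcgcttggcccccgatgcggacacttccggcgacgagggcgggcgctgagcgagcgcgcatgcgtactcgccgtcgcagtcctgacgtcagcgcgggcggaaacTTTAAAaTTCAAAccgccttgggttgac
Ube2c: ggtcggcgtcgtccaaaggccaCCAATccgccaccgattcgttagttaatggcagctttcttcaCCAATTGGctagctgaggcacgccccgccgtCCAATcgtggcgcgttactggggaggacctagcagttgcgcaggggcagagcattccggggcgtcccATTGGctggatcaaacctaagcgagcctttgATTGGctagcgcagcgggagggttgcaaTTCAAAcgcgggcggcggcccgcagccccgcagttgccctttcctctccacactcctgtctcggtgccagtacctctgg
Cdk1: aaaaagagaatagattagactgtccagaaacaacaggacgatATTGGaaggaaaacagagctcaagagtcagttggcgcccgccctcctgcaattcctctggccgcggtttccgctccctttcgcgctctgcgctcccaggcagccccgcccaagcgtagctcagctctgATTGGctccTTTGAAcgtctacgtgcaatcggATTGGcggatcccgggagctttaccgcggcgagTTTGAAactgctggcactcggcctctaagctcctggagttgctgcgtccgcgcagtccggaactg
Neither Anln, which rose, nor Ndc80, which fell, had a CCAAT in the window, and both had a pair of adjoining CHR matches just downstream of the start. The pairs began at bases 22 and 29 in Anln and 23 and 30 in Ndc80, counted from 1 at the first transcribed base. The pair differed in letters: TTTGAA on opposite strands in Anln, and TTTAAA and TTTGAA in Ndc80. In Cdk1 the CCAAT matches began at bases −208, −80 and −48 and the CHR matches at −71 and −15. In Ube2c 2 of the CCAAT matches overlap on opposite strands. These are matches of letters, not sites shown to be bound.

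**Figure D1:**
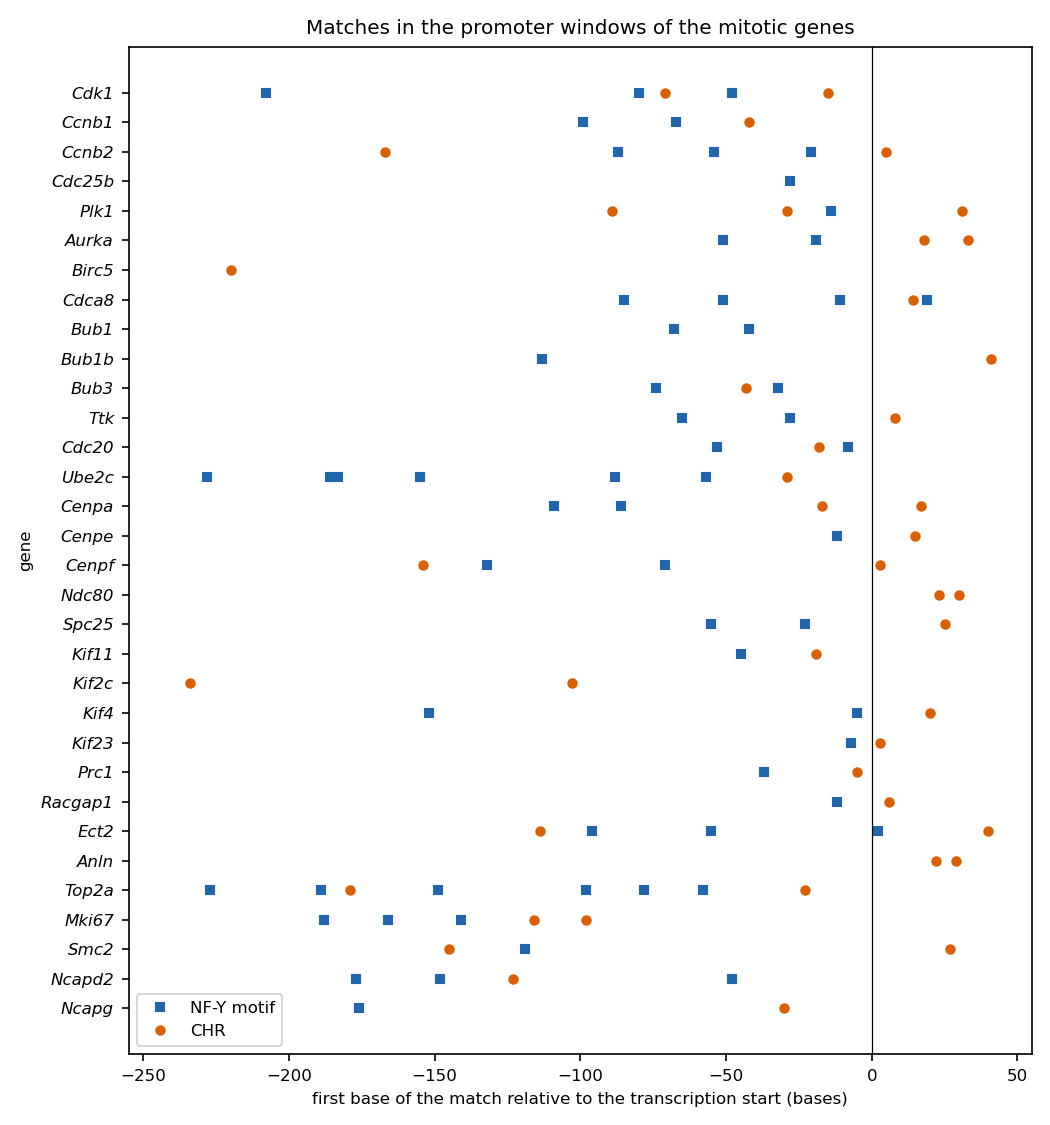
Positions of CHR matches (TTTGAA or TTTAAA, either strand) and NF-Y motif matches (CCAAT, either strand) in the promoter windows of the 32 members with a match of either kind; the x axis gives the first base of each match relative to the transcription start in bases, and each line is 1 gene. Of 44 CHR matches 31 lie within 50 bases of the start, and 40 of 61 CCAAT matches begin within the 100 bases before it.

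The mitotic genes were abundant in both groups, as the plot of levels by library shows. Their mean level over the 6 libraries ran from 5.86 TPM in Cdc25c to 404 TPM in Top2a with a median of 44.1 TPM, against a median of 16.1 TPM over all 12862 tested genes, and 29 of the 43 lay between 20 and 100 TPM. Replicates were close, with a median SD of log2(TPM + 1) of 0.0740 with the empty vector and 0.15 with the fusion (0.0887 and 0.175 over all tested genes). The summed level of the 43 genes was 2241, 2312 and 2344 TPM with the empty vector and 2585, 2603 and 2279 TPM with the fusion. Fusion replicates 1 and 2 were above all 3 control libraries, and fusion replicate 3 lay among them.

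**Figure D2:**
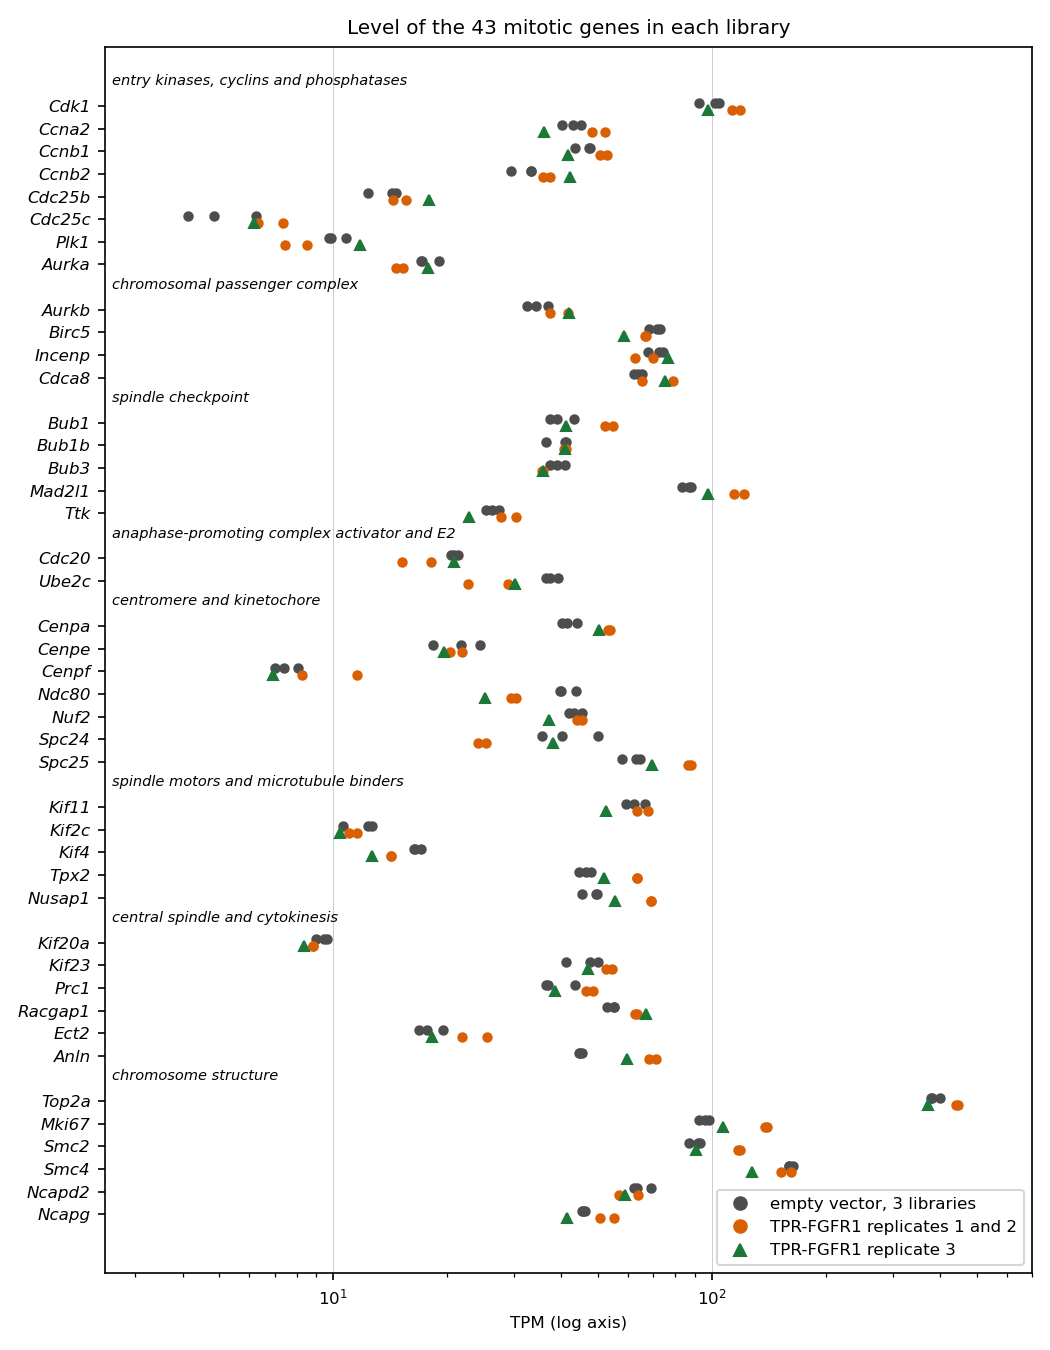
Level of each of the 43 genes in TPM (log axis), grouped by role, with 1 point per library: grey for the 3 empty vector libraries, orange for TPR-FGFR1 replicates 1 and 2, and green triangles for TPR-FGFR1 replicate 3. The groups lie close together for most genes, and the whole set spans mean levels of 5.86 to 404 TPM.

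Most mitotic transcripts did not pass the test, and those that did went in both directions. With the fusion, 7 of the 43 genes rose (16.3%, against 10.2% of all tested genes) and 2 fell (4.65%, against 10.0%), at an adjusted p under 0.05 in limma with the Benjamini-Hochberg method over 12862 genes; 34 were not called. The risers were Anln, Mki67, Nusap1, Spc25, Mad2l1, Tpx2 and Cenpa, with log2 fold changes of 0.32 to 0.55, and Ndc80 and Ube2c fell. The median log2 fold change was 0.09, beside 0.02 over all tested genes, with 26 genes above 0 and 17 below and a range of −0.53 to 0.55. All 3 fusion libraries lay above all 3 control libraries for 11 genes (25.6%, against 22.6% of all tested genes) and below them for 6 (14%, against 20.8%). These shares are of the same order as those of all tested genes, and their difference was not tested.

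**Figure D3:**
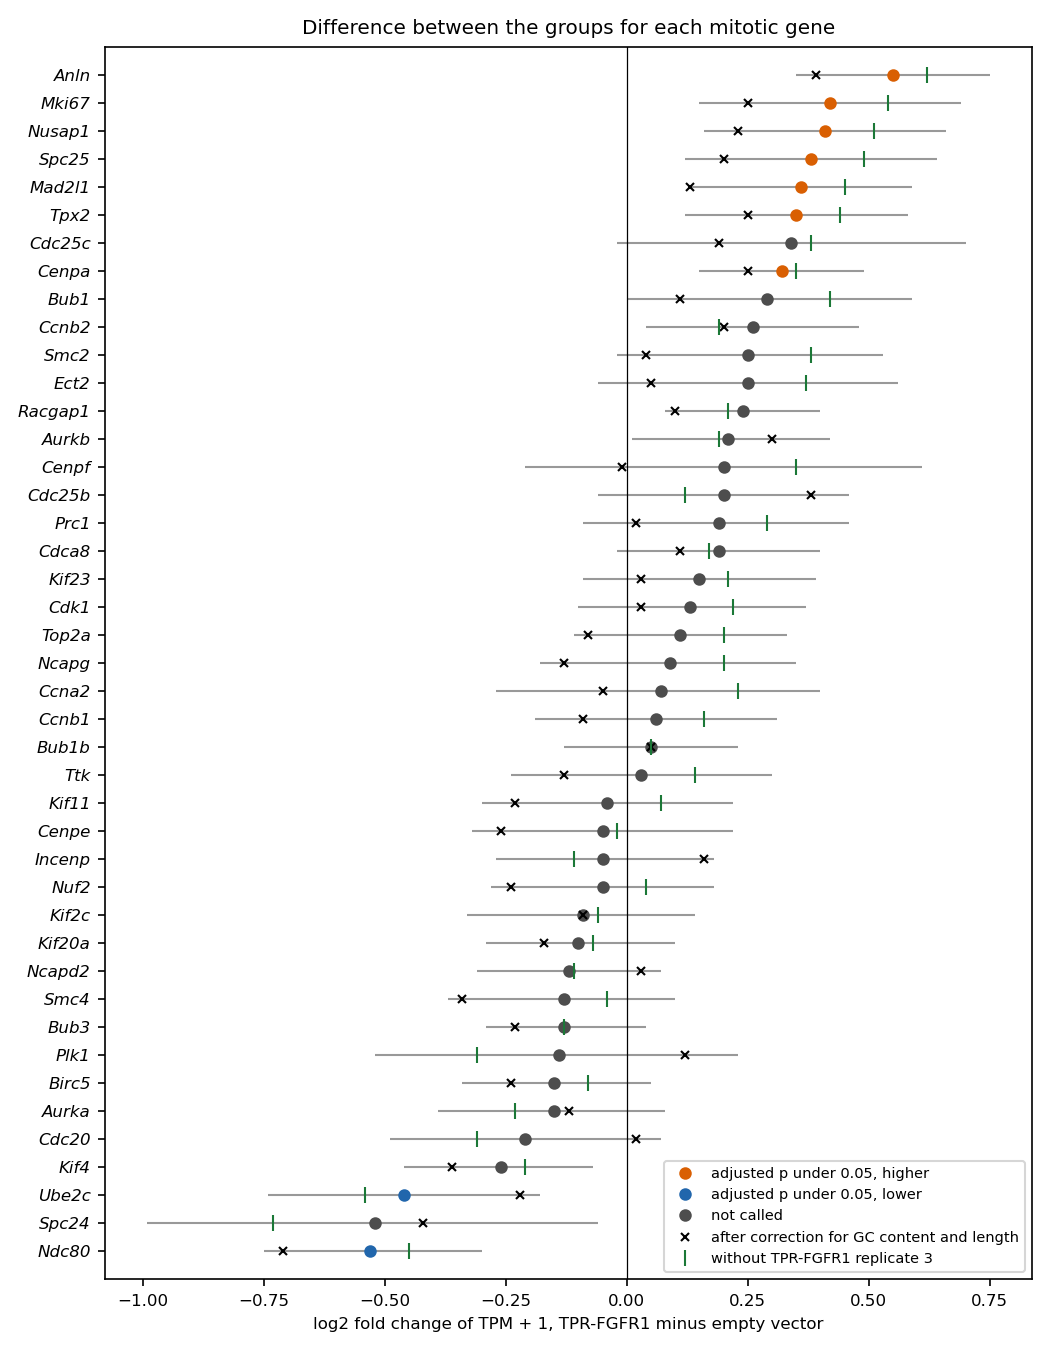
Log2 fold change of TPM + 1 (TPR-FGFR1 minus empty vector) for each of the 43 genes, with circles for the fit of all 6 libraries (orange, called higher; blue, called lower; grey, not called), lines for its 95% confidence interval, crosses for the value with each library corrected for GC content and length, and green ticks for the value without TPR-FGFR1 replicate 3. The values run from −0.53 for Ndc80 to 0.55 for Anln, and 34 of 43 genes are grey.

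The counts depended strongly on single libraries. Without TPR-FGFR1 replicate 3, 16 members rose and 7 fell, but so did 26.3% and 23.4% of all tested genes, and the members' median was 0.17. Leaving out TPR-FGFR1 replicate 1, or any 1 of the 3 empty vector libraries, ended every call among the members in limma. At an unadjusted p under 0.05, 8 to 10 members were then higher and 3 lower. Leaving out TPR-FGFR1 replicate 2 left 1 rise and 1 fall. Calls over all tested genes also became fewer than the 2600 with all libraries. They numbered 307 without TPR-FGFR1 replicate 1, 869 without replicate 2, and 406, 220 and 282 without empty vector replicates 1, 2 and 3. These fits tested 12815 to 12882 genes. With the GC correction, 7 members rose and 7 fell (13.3% and 16.1% of all tested genes) with a median of 0.03, and with it and without TPR-FGFR1 replicate 3, 7 rose and 8 fell (15.9% and 18.8%). Anln, Cenpa, Tpx2, Nusap1 and Mki67 rose in the fit of all libraries, without TPR-FGFR1 replicate 3, with the GC correction and with both, and Ndc80 fell in all 4. Another 13 members were called in none of the 4, and 0 were called in opposite directions.

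Library by library, the median member stood −0.06, 0.01 and 0.04 from the empty vector mean on the log2 scale in the controls and 0.17, 0.13 and −0.00 in the fusion libraries, and with the GC correction the fusion libraries stood at 0.01, 0.03 and −0.01. Fusion replicate 3 was the lowest of the 3 fusion libraries in 29 of 43 members (67.4%, against 51.1% of all tested genes). The members' GC content had a median of 46.3% (34.8% to 56.0%), below the 48.8% of all tested genes. Across the 43 members the log2 fold change and GC content had a Spearman correlation of −0.37 and a Pearson correlation of −0.38, given as a description since the genes share the same 6 libraries; after correction the Spearman value was 0.16.

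**Figure D4:**
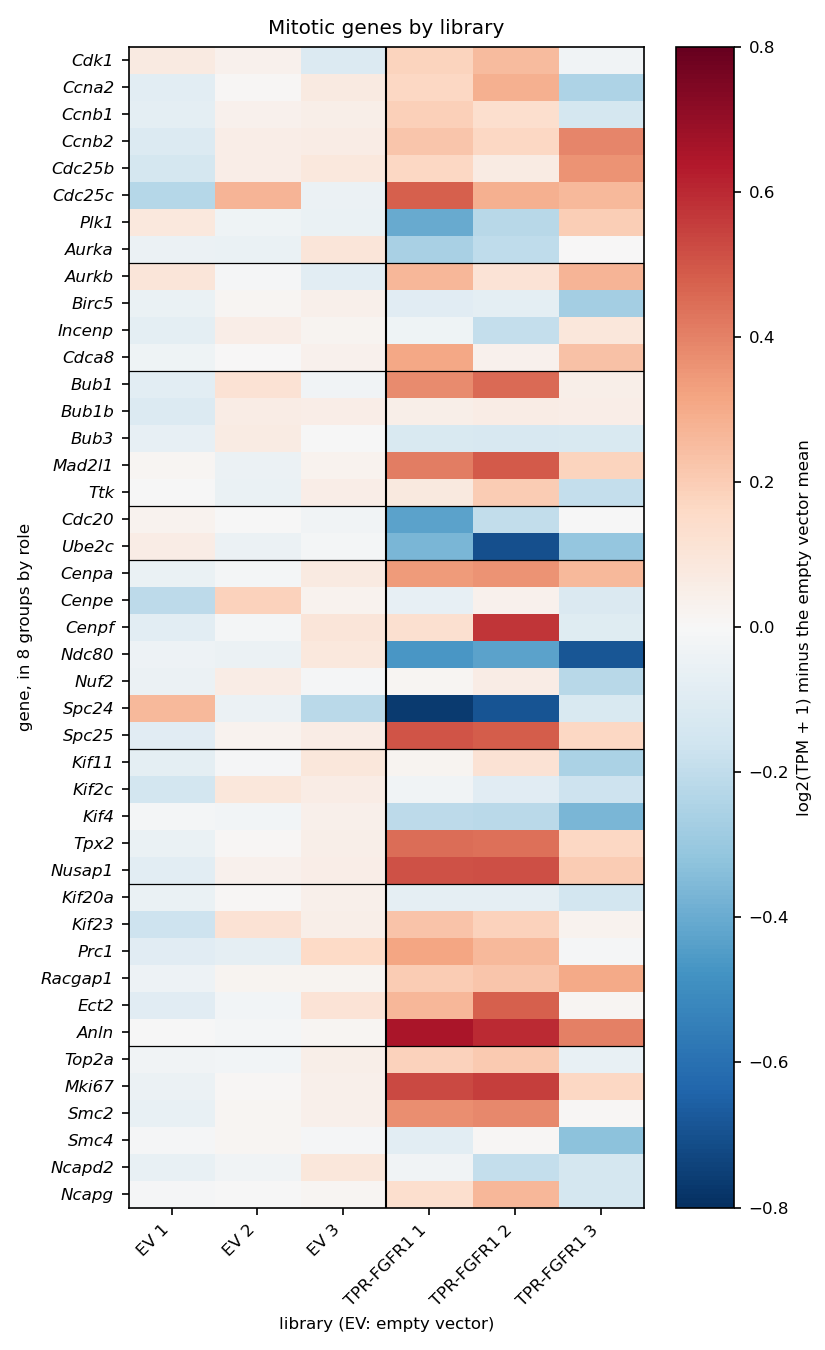
Log2(TPM + 1) minus the empty vector mean for each of the 43 genes (rows, in 8 groups by role divided by lines) in each of the 6 libraries (columns; EV, empty vector), with red for higher and blue for lower. TPR-FGFR1 replicates 1 and 2 look alike, with member medians of 0.17 and 0.13, and replicate 3 is paler for many genes, with a median of −0.00.

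The kinases, cyclins and phosphatases that drive entry into mitosis held no called change. Of these 8 genes 0 rose and 0 fell in limma (at an unadjusted p under 0.05, 1 was higher and 0 lower), with a median log2 fold change of 0.10. Over all tested genes 10.2% rose and 10.0% fell. The counts of the groups by role below, of 8 genes at most, are to be read beside these shares. Cdk1, the kinase at the centre of the switch, stood at 105, 102 and 92.2 TPM with the empty vector and 113, 118 and 97.4 TPM with the fusion. Its groups overlapped, with a log2 fold change of 0.13 (95% confidence interval −0.10 to 0.37, adjusted p = 0.343).

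The cyclins that activate it were not called either. Ccna2, cyclin A2, measured 40.2, 43.1 and 44.98 TPM in controls and 48.1, 52.2 and 35.9 TPM with the fusion, the last being the lowest of the 6 (log2 fold change 0.07, interval −0.27 to 0.40). Ccnb1, cyclin B1, measured 43.6, 47.3 and 47.6 TPM in controls against 52.8, 50.6 and 41.7 TPM with the fusion (log2 fold change 0.06, interval −0.19 to 0.31), again with replicate 3 lowest. Of the 51-base stretches of Ccnb1 transcripts 41.86% also occur in other genes, chiefly the pseudogene Ccnb1-ps, so its value is uncertain where reads were split. Ccnb2, cyclin B2, was 29.5, 33.2 and 33.2 TPM with the empty vector and 37.3, 35.9 and 42.2 TPM with the fusion, without overlap, but did not pass the test (log2 fold change 0.26, SE 0.0934, adjusted p = 0.0911). Without TPR-FGFR1 replicate 3, Cdk1 and Ccna2 passed, at log2 fold changes of 0.22 and 0.23 (adjusted p = 0.0431 and 0.0398), and Ccnb1 and Ccnb2 did not.

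The CDC25 phosphatases remove the inhibitory phosphates from CDK1. Cdc25b measured 12.3, 14.3 and 14.6 TPM in controls and 15.5, 14.4 and 17.9 TPM with the fusion, and Cdc25c, the least abundant member, measured 4.14, 6.26 and 4.83 TPM in controls and 7.38, 6.34 and 6.19 TPM with the fusion. Both overlapped between groups, with log2 fold changes of 0.20 and 0.34 (adjusted p = 0.223 and 0.140); with the GC correction Cdc25b was called higher (log2 fold change 0.38, adjusted p = 0.0122). Stretches making up 22.17% of Cdc25c also occur in other genes.

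Plk1 and Aurka encode kinases that act at centrosomes and, for PLK1, also at kinetochores. Plk1 was 10.8, 9.89 and 9.74 TPM with the empty vector and 7.44, 8.53 and 11.8 TPM with the fusion, so that fusion replicates 1 and 2 were below every control and replicate 3 above every control. Its log2 fold change was −0.14 (adjusted p = 0.532) with all libraries, −0.31 (adjusted p = 0.0320) without replicate 3 and 0.12 (adjusted p = 0.340) after the GC correction, and its sign thus differed between fits. For Aurka the values were 17.2, 17.04 and 19.03 TPM in controls and 14.6, 15.3 and 17.7 TPM with the fusion, with fusion replicates 1 and 2 below all controls and replicate 3 among them (log2 fold change −0.15, adjusted p = 0.291; −0.23 and 0.0430 without replicate 3).

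The chromosomal passenger complex corrects faulty attachments of kinetochores and later moves to the spindle midzone. It is built of the kinase Aurora B (Aurkb), survivin (Birc5), INCENP (Incenp) and borealin (Cdca8). In limma 0 of its 4 genes rose or fell (at an unadjusted p under 0.05, 1 was higher and 0 lower), with a median log2 fold change of 0.07. Aurkb was 36.96, 34.4 and 32.5 TPM in controls and 41.7, 37.4 and 41.9 TPM with the fusion, without overlap (log2 fold change 0.21, SE 0.0856, adjusted p = 0.112). Birc5 lay the other way, at 68.1, 71.4 and 72.8 TPM in controls against 66.4, 67.1 and 58.5 TPM with the fusion, also without overlap (log2 fold change −0.15, SE 0.0819, adjusted p = 0.226). The GC correction brought both past the threshold, Aurkb at 0.30 (adjusted p = 0.0171) and Birc5 at −0.24 (adjusted p = 0.00796).

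Within each library, the ratio of Aurkb to Birc5 was 0.543, 0.481 and 0.446 in controls and 0.628, 0.558 and 0.716 with the fusion, a difference of 0.37 in log2 ratio. Such ratios were computed for pairs of subunits within complexes after the genes' values were seen, and an exact permutation test of 3 against 3 libraries cannot give less than 0.1, so they stand as descriptions. Where a gene was higher and its partner lower in every fusion library, as here, their ratio could not overlap. Cdca8 was higher in every fusion library, at 79.1, 65.3 and 75.1 TPM against 62.2, 63.8 and 65.2 TPM, but by a margin within the test's error (log2 fold change 0.19, adjusted p = 0.157). Incenp, the scaffold of the complex, overlapped, at 67.8, 74.3 and 72.6 TPM in controls and 69.7, 62.4 and 76.3 TPM with the fusion (log2 fold change −0.05, interval −0.27 to 0.18).

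Among 5 genes of the spindle checkpoint, which delays anaphase while kinetochores are unattached, 1 rose and 0 fell. Mad2l1 encodes MAD2, the protein that binds and holds CDC20, and it rose from 86.8, 83.3 and 87.8 TPM with the empty vector to 115, 121 and 97.5 TPM with the fusion. All fusion libraries were above all controls, and the means were 86.0 ± 2.36 and 111 ± 12.3 TPM (SD, n = 3 per group, 1.29-fold, log2 fold change 0.36, SE 0.0962, adjusted p = 0.0418). With the GC correction the Mad2l1 value was 0.13 and missed the threshold (adjusted p = 0.0584). Bub1, a kinetochore kinase of the checkpoint, was 37.4, 43.3 and 39.01 TPM in controls and 52.2, 54.9 and 41.2 TPM with the fusion, where replicate 3 lay among the controls; it passed the test without that library but not with it (log2 fold change 0.29, adjusted p = 0.125 with it, and 0.42 and 0.00679 without).

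The partners of MAD2 in the mitotic checkpoint complex gave other values. Bub1b, which encodes BUBR1, was 36.5, 41.1 and 40.9 TPM in controls and 40.8, 41.2 and 40.98 TPM with the fusion, with fusion values spread by 0.201 TPM (SD) around 41.0 TPM (log2 fold change 0.05, interval −0.13 to 0.23). Bub3 was 37.2, 40.9 and 39 TPM with the empty vector and 35.7, 35.6 and 35.8 TPM with the fusion, lower in every fusion library by a small margin (log2 fold change −0.13, adjusted p = 0.228); the GC correction gave −0.23 (adjusted p = 0.0385). The annotated Bub3 gene overlaps the Fgfr2 gene on the other strand, but only 0.78% of the Bub3 sequence also occurs in other genes. The gene that shares most of it is a pseudogene, not Fgfr2. The strand setting of the counting is not given in the sources used here. The ratio of Mad2l1 to Bub3 was 2.33, 2.04 and 2.25 in controls and 3.21, 3.41 and 2.72 in fusion libraries. Ttk, which encodes MPS1, the kinase that starts checkpoint signalling, overlapped at 26.2, 25.3 and 27.3 TPM in controls and 27.8, 30.4 and 22.9 TPM with the fusion (log2 fold change 0.03, interval −0.24 to 0.30).

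The checkpoint acts on the anaphase-promoting complex, a ubiquitin ligase that marks cyclin B and securin for destruction. Ube2c encodes UBCH10, the enzyme that hands ubiquitin to it. It fell from 39.3, 36.4 and 37.2 TPM with the empty vector to 28.9, 22.7 and 30.1 TPM with the fusion. The groups did not overlap, with means of 37.6 ± 1.48 and 27.2 ± 4.00 TPM (SD, n = 3 per group, 0.724 of the control level, log2 fold change −0.46, SE 0.117, adjusted p = 0.0365). With the GC correction the Ube2c value was −0.22 (adjusted p = 0.0917), and 17.6% of its sequence is shared with other genes, chiefly Tnnc2 on the other strand. The part of these in its fall was not tested. Cdc20, the activator that MAD2 holds, was 21.3, 20.8 and 20.5 TPM in controls and 15.2, 18.1 and 20.8 TPM with the fusion, with replicate 3 among the controls. Cdc20 did not pass the test (log2 fold change −0.21, adjusted p = 0.223); it did without replicate 3 (−0.31, adjusted p = 0.0262), and its value after the GC correction was 0.02.

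The centromere and kinetochore genes held changes in opposite directions. Of 7 genes 2 rose, Cenpa and Spc25, and 1 fell, Ndc80 (28.6% and 14.3%, against 10.2% and 10.0% of all tested genes). Cenpa, the histone H3 variant that marks where the kinetochore is built, rose from 40.2, 41.3 and 43.9 TPM with the empty vector to 53.1, 53.9 and 50.3 TPM with the fusion. Every fusion library was above every control and the fusion libraries were tightly grouped, with means of 41.8 ± 1.94 and 52.4 ± 1.88 TPM (SD, n = 3 per group, 1.25-fold, log2 fold change 0.32, SE 0.0737, adjusted p = 0.0287). The rise of Cenpa was also called in other fits, at 0.25 (adjusted p = 0.00930) after the GC correction and 0.35 (adjusted p = 0.00486) without TPR-FGFR1 replicate 3. The motor CENP-E (Cenpe), which carries chromosomes along microtubules, overlapped at 18.3, 24.4 and 21.8 TPM in controls and 20.4, 21.9 and 19.6 TPM with the fusion (log2 fold change −0.05, adjusted p = 0.771). The outer kinetochore protein CENP-F (Cenpf) was low, at 7, 7.39 and 8.07 TPM in controls and 8.26, 11.6 and 6.91 TPM with the fusion, of which replicate 2 alone stood out (log2 fold change 0.20, interval −0.21 to 0.61).

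The NDC80 complex is a rod of 4 subunits in which NDC80 (HEC1) and NUF2 grip the microtubule and SPC24 and SPC25 anchor the rod to the kinetochore. Of its 4 genes 1 fell, 1 rose and 2 did not pass the test. Ndc80 fell from 40.01, 39.8 and 43.7 TPM with the empty vector to 29.5, 30.3 and 25.2 TPM with the fusion. No library overlapped, and the means were 41.2 ± 2.21 and 28.3 ± 2.77 TPM (SD, n = 3 per group, 0.689 of the control level, log2 fold change −0.53, SE 0.0955, interval −0.75 to −0.30, adjusted p = 0.0160). The GC content of Ndc80 (42.4%) is below the median, and its fall was larger after the correction, at −0.71 (adjusted p = 0.00105).

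Spc25 went the other way, from 57.9, 63.1 and 64.5 TPM in controls to 87.8, 86.7 and 69.5 TPM with the fusion. All fusion libraries were above all controls, though replicate 3 only just, with means of 61.9 ± 3.49 and 81.4 ± 10.2 TPM (SD, n = 3 per group, 1.32-fold, log2 fold change 0.38, SE 0.109, adjusted p = 0.0496). The Spc25 call stood at the threshold: it was lost after the GC correction (0.20, adjusted p = 0.0656) and passed without replicate 3 (0.49, adjusted p = 0.00220). Spc24 was 49.96, 40.1 and 35.6 TPM with the empty vector and 24.05, 25.3 and 38.1 TPM with the fusion, with replicate 3 inside the control range. Its log2 fold change of −0.52 (SE 0.198, interval −0.99 to −0.06) was nearly as large as that of Ndc80 but less certain (adjusted p = 0.0994); without replicate 3 it was −0.73 (adjusted p = 0.00890). Nuf2, the direct partner of NDC80, overlapped at 42.04, 45.4 and 43.2 TPM in controls and 44.03, 45.3 and 37.1 TPM with the fusion (log2 fold change −0.05, interval −0.28 to 0.18), and was called lower after the GC correction (−0.24, adjusted p = 0.0133).

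Ratios taken within a library do not depend on its total, and several of them were shifted in all 3 fusion libraries, replicate 3 included. Of the 6 ratios within the NDC80 complex 4 did not overlap between the groups, and of all 28 ratios computed 17 did not. No such share was computed for pairs of other genes, and many of these ratios have a gene in common, so they are not separate observations. Among all tested single genes, which are a measure unlike ratios, 22.6% were higher and 20.8% lower without overlap. Ndc80 stood at 0.952, 0.877 and 1.01 of the Nuf2 level in controls and at 0.671, 0.669 and 0.678 with the fusion. Against Spc25, Ndc80 stood at 0.691, 0.630 and 0.678 in controls and 0.336, 0.350 and 0.362 with the fusion, a difference of −0.93 in log2 ratio. The Nuf2 to Spc25 ratio was 0.726, 0.719 and 0.669 against 0.501, 0.523 and 0.534. None of these 3 ratios overlapped between the groups (two-sided exact permutation p = 0.1 each, the smallest possible). For Ndc80 to Spc25 this follows from the single genes, since Ndc80 was lower and Spc25 higher in every fusion library. The ratio of Spc24 to Spc25 was 0.863, 0.636 and 0.552 in controls and 0.274, 0.292 and 0.548 with the fusion, where replicate 3 all but met the lowest control. Ndc80 and Spc24 overlapped in their ratio, at 0.801, 0.992 and 1.23 in controls and 1.23, 1.2 and 0.661 with the fusion. The ratio of Nuf2 to Spc24 overlapped too, at 0.841, 1.13 and 1.21 in controls and 1.83, 1.79 and 0.975 with the fusion.

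**Figure D5:**
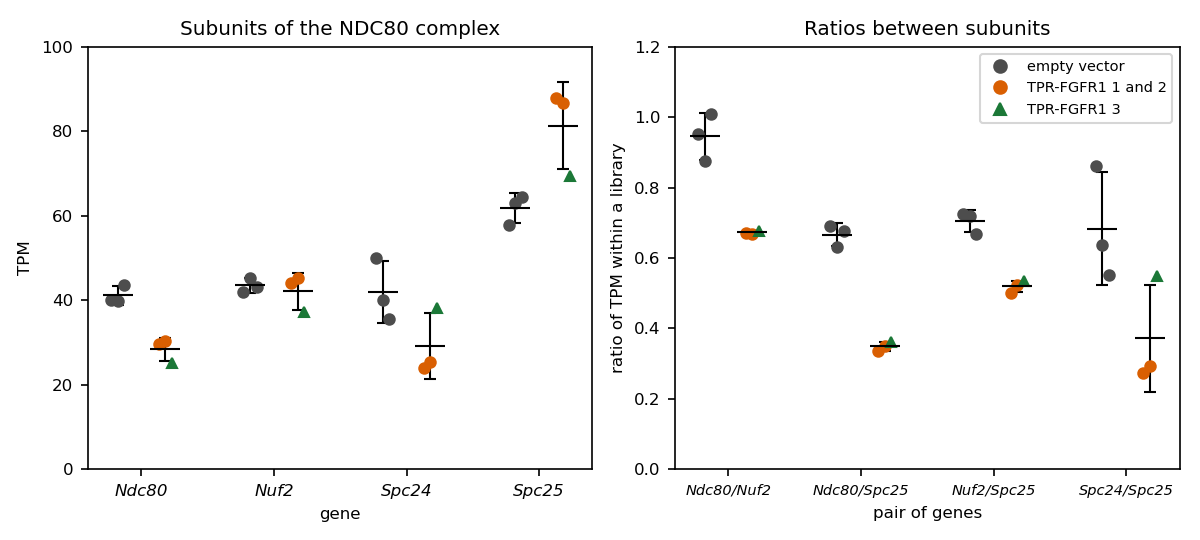
Left, level in TPM of the 4 subunit genes of the NDC80 complex; right, ratios of TPM between pairs of them within a library, with 1 point per library (grey, empty vector; orange, TPR-FGFR1 replicates 1 and 2; green triangle, TPR-FGFR1 replicate 3). The Ndc80 to Spc25 ratio is 0.630 to 0.691 in controls and 0.336 to 0.362 with the fusion, with replicate 3 beside the other fusion libraries.

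Of 5 spindle motors and microtubule binders 2 rose, both of them microtubule binders that are not motors. Tpx2, which activates Aurora A and promotes microtubule nucleation around chromosomes, rose from 44.4, 46.5 and 47.9 TPM with the empty vector to 63.3, 63.2 and 52 TPM with the fusion. Nusap1, which bundles and stabilises spindle microtubules, rose from 45.2, 49.2 and 49.8 to 68.9, 69.2 and 55.4 TPM. In both genes all fusion libraries were above all controls and replicate 3 was the lowest of them, with 1.29-fold and 1.34-fold differences of the means. Their log2 fold changes were 0.35 (SE 0.0977, adjusted p = 0.0465) and 0.41 (SE 0.107, adjusted p = 0.0394). After the GC correction both stayed past the threshold, at 0.25 (adjusted p = 0.0189) and 0.23 (adjusted p = 0.0194).

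The 3 kinesins of this group did not pass the test. Kif11 encodes EG5, which pushes the spindle poles apart, and was 59.3, 62.1 and 66.7 TPM in controls and 63.6, 67.9 and 52.5 TPM with the fusion, with replicate 3 lowest (log2 fold change −0.04, adjusted p = 0.816; −0.23 and 0.0234 after the GC correction). Kif4, a chromokinesin that acts on chromosome arms and at the midzone, was 16.4, 16.4 and 17.1 TPM with the empty vector and 14.2, 14.2 and 12.7 TPM with the fusion. The groups of Kif4 did not overlap, and its value fell short of the threshold by a little (log2 fold change −0.26, SE 0.0823, adjusted p = 0.0630), which it passed after the GC correction (−0.36, adjusted p = 0.00391) and without replicate 3 (−0.21, adjusted p = 0.0262). Of the Kif4 sequence 16.14% also occurs in other genes, chiefly Pdzd11 on the other strand. Kif2c, a kinesin that depolymerises microtubule ends, overlapped at 10.6, 12.6 and 12.3 TPM in controls and 11.6, 11.03 and 10.4 TPM with the fusion (log2 fold change −0.09, interval −0.33 to 0.14).

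The central spindle and cytokinesis genes had a median log2 fold change of 0.21 over 6 genes, or 0.04 with the GC correction, and of them 1 rose and 0 fell. That gene was Anln, which encodes anillin, the scaffold of the contractile ring, and had the largest log2 fold change and the smallest adjusted p of the 43. It rose from 44.8, 44.4 and 45.4 TPM with the empty vector, where the spread was very small, to 71.2, 68.3 and 59.5 TPM with the fusion. Even fusion replicate 3 was well above every control, and the means were 44.9 ± 0.510 and 66.3 ± 6.06 TPM (SD, n = 3 per group, 1.48-fold, log2 fold change 0.55, SE 0.0864, interval 0.35 to 0.75, adjusted p = 0.0117). The Anln value was 0.39 (adjusted p = 0.00269) after the GC correction and 0.62 (adjusted p = 0.000751) without TPR-FGFR1 replicate 3. Of 20 alternative settings 4 took its adjusted p above the threshold, to 0.0614 at most, each by leaving out a library (TPR-FGFR1 replicate 1 or 1 of the controls).

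Anillin is recruited by active RhoA, which is switched on by the exchange factor ECT2 together with centralspindlin. Racgap1, a subunit of centralspindlin, was 52.7, 55.1 and 55 TPM with the empty vector and 62.5, 63.3 and 67.03 TPM with the fusion, with no overlap and replicate 3 the highest. Its log2 fold change of 0.24 (SE 0.0692) missed the threshold narrowly (adjusted p = 0.0509), passed it without replicate 3 (adjusted p = 0.0137) and was 0.10 (adjusted p = 0.386) after the GC correction. Kif23, the other subunit, overlapped at 41.1, 50.1 and 47.7 TPM in controls and 54.3, 52.5 and 47.2 TPM with the fusion (log2 fold change 0.15, adjusted p = 0.313). For Ect2 the values were 16.9, 17.7 and 19.5 TPM in controls and 21.8, 25.4 and 18.2 TPM with the fusion, and replicate 3 again lay among the controls (log2 fold change 0.25, adjusted p = 0.193; 0.37 and 0.0219 without it). Prc1, which bundles antiparallel microtubules at the midzone, was 36.4, 36.8 and 43.4 TPM in controls and 48.4, 46.6 and 38.6 TPM with the fusion (log2 fold change 0.19, adjusted p = 0.264; 0.29 and 0.0412 without replicate 3). Kif20a, which carries the passenger complex to the midzone, was low at 9, 9.43 and 9.65 TPM in controls and 8.85, 8.85 and 8.36 TPM with the fusion (log2 fold change −0.10, adjusted p = 0.415), and 31.13% of its sequence is shared with Cdc23.

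Among 6 genes of chromosome structure 1 rose and 0 fell. Mki67, whose protein coats mitotic chromosomes and is a widely used marker of proliferating cells, rose from 92.2, 95.8 and 97.9 TPM with the empty vector to 138, 140.03 and 107 TPM with the fusion. All fusion libraries were above the controls, replicate 3 by the least, with means of 95.3 ± 2.87 and 128 ± 18.4 TPM (SD, n = 3 per group, 1.35-fold, log2 fold change 0.42, SE 0.114, adjusted p = 0.0452). The value was 0.25 after the GC correction (adjusted p = 0.0241). Top2a, the topoisomerase that untangles sister chromatids and the most abundant member, was 379, 382 and 401 TPM with the empty vector and 439.7, 448 and 372 TPM with the fusion. Its replicate 3 was below every control (log2 fold change 0.11, adjusted p = 0.407), and without that library Top2a was called higher at 0.20 (adjusted p = 0.0156), while with the GC correction it stood at −0.08 (adjusted p = 0.240).

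Condensin folds chromosomes into rods and pairs the ATPases SMC2 and SMC4, which bind each other as a heterodimer. Smc2 was 86.7, 91.6 and 93.1 TPM with the empty vector and 117, 118 and 90.96 TPM with the fusion, and Smc4 was 160.04, 163 and 160.03 TPM in controls and 152, 162 and 128 TPM with the fusion. Both overlapped between the groups (log2 fold changes 0.25 and −0.13, adjusted p = 0.147 and 0.349), and without TPR-FGFR1 replicate 3 Smc2 was called higher at 0.38 (adjusted p = 0.00254). Yet the ratio of Smc2 to Smc4 within a library was 0.542, 0.561 and 0.582 in controls and 0.770, 0.730 and 0.711 with the fusion, a difference of 0.39 in log2 ratio with no overlap (two-sided exact permutation p = 0.1, the smallest possible). Both genes have a low GC content, 39.7% and 40.2%. After correction Smc2 stood at 0.04 (adjusted p = 0.632) and Smc4 was called lower at −0.34 (adjusted p = 0.00269), so that both values were lower with the correction. The other subunits of condensin I overlapped: Ncapd2 at 62.3, 63.6 and 69.2 TPM in controls and 63.7, 56.7 and 58.8 TPM with the fusion (log2 fold change −0.12) and Ncapg at 45.4, 45.7 and 46.3 TPM in controls and 50.5, 55.2 and 41.4 TPM with the fusion (log2 fold change 0.09). Ncapg was called higher without TPR-FGFR1 replicate 3 (0.20, adjusted p = 0.0291) and had the opposite sign with the GC correction (−0.13, adjusted p = 0.0584).

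Other genes of mitosis, from 5 lists that hold none of the 43, also held calls in both directions. Of 124 tested, 10 rose and 12 fell (8.06% and 9.68%, against 10.2% and 10.0% of all tested genes), shares near the background, with a median log2 fold change of 0.04. Leaving out 1 library gave 0 to 39 rises and 1 to 26 falls, the highest counts without TPR-FGFR1 replicate 3. Among 36 further genes of centromere, kinetochore and checkpoint 1 rose and 6 fell, among 34 of spindle, centrosome and cytokinesis 3 rose and 0 fell. Among 19 of the anaphase-promoting complex, securin and separase 2 rose and 3 fell, and among 15 of cohesin and condensin 2 rose and 0 fell. Ckap2, a spindle microtubule protein, rose from 34.3, 37 and 37.9 to 57.2, 62.8 and 51.01 TPM (log2 fold change 0.63, adjusted p = 0.0113). Pttg1, which encodes securin, the guard of separase, rose by 0.46 on the log2 scale, with means of 74.8 ± 4.51 TPM in controls and 103 ± 3.59 TPM with the fusion (SD, n = 3; adjusted p = 0.0130). Pmf1, a subunit of the MIS12 complex that receives the NDC80 rod at the kinetochore, fell from 33.7, 35.3 and 31.5 to 14.2, 11.8 and 22.03 TPM (log2 fold change −1.06, adjusted p = 0.0184). Cenpt, which offers the rod a separate anchor, fell from 15.5 ± 1.67 to 10.1 ± 0.959 TPM (adjusted p = 0.0198).

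Of the rest named by the same rule, Anapc16 and Anapc5, subunits of the anaphase-promoting complex, fell (log2 fold changes −0.68 and −0.43, adjusted p = 0.00913 and 0.0261); with the GC correction Anapc5 was no longer called (−0.30, adjusted p = 0.0544). Esco2, which acetylates cohesin, and Ncapd3, a subunit of condensin II, rose (0.66 and 0.40, adjusted p = 0.0141 and 0.0188).

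Some subunits of the complexes that bind the motifs shown above were measured as well. Nfyc and Nfya are named because they were called, and other subunits are not shown. Of 20 regulators of mitotic transcription and entry 2 rose and 3 fell, to be read beside 10.2% and 10.0% of all tested genes. The difference from these shares was not tested. Nfyc, a subunit of the CCAAT-binding trimer NF-Y, fell from 21.02, 22.8 and 21 TPM to 10.6, 11.8 and 10.4 TPM, 0.504 of the control level and far outside the spread of either group (log2 fold change −0.93, SE 0.0864, adjusted p = 0.00587); it was called in all 20 alternative settings. Nfya, its DNA-contacting partner, rose from 29.1, 35.1 and 33.2 TPM to 47.3, 45.4 and 47.4 TPM (log2 fold change 0.52, adjusted p = 0.0142). Of the factors of the CHR, Foxm1, Mybl2 and Lin9 did not pass: Foxm1 stood at 25.2, 30.9 and 27.7 TPM in controls against 25.4, 22.6 and 20.6 TPM with the fusion (log2 fold change −0.28, adjusted p = 0.113), Mybl2 at 31.1, 31.1 and 33.4 TPM in controls against 22.2, 21.2 and 29.4 TPM with the fusion (−0.39, adjusted p = 0.0712) and Lin9 at 11.4 ± 0.353 against 12.1 ± 1.02 TPM (0.07). Mybl2 passed without TPR-FGFR1 replicate 3 (−0.53, adjusted p = 0.00180). Rbl2, which encodes p130, the pocket protein of DREAM, rose (0.41, adjusted p = 0.0214). The CDK inhibitor gene Cdkn1b (p27) fell from 46.3 ± 2.30 to 35.4 ± 0.397 TPM (adjusted p = 0.0181), and Cdkn1a (p21) and Wee1 were not called (−0.24 and 0.17, adjusted p = 0.113 and 0.319). Without TPR-FGFR1 replicate 3 Cdkn1a was called lower and Wee1 higher (−0.32 and 0.28, adjusted p = 0.0133 and 0.0282).

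Genes of DNA replication, expressed earlier in the cycle, were measured beside the 43. Of 24 such genes 0 rose and 8 fell in limma, against 10.2% and 10.0% of all tested genes (at an unadjusted p under 0.05, 0 were higher and 10 lower), with a median log2 fold change of −0.16 beside 0.09 for the mitotic genes. The count of falls was 1 without TPR-FGFR1 replicate 1 or any 1 empty vector library, 2 without TPR-FGFR1 replicate 2, and 11, with 3 rises, without TPR-FGFR1 replicate 3; with the GC correction 11 fell and 0 rose. The median replication gene stood at −0.19, −0.18 and −0.23 in fusion replicates 1, 2 and 3. Replicate 3 was thus not apart in this median, though the counts of calls given above changed without it. Gins1, a subunit of the replicative helicase, fell from 16.96, 15.9 and 17.8 to 10.5, 10.3 and 9.80 TPM (log2 fold change −0.68, adjusted p = 0.00746). Tyms, Mcm2 and Rrm2, for thymidylate synthase, a helicase subunit and a ribonucleotide reductase subunit, fell by 0.75, 0.65 and 0.45 on the log2 scale (adjusted p = 0.0179, 0.0284 and 0.0181). The difference between these lists and the mitotic genes was not tested.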

How the data were processed

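Messenger RNA was measured in 6 libraries, 3 per group, each made from total RNA with a stranded Illumina kit per the labels' protocols. The authors deposited TPM values per Ensembl gene; fastp, HISAT2, StringTie and build GRCm39 are named in the submitters' processing notes, but neither their versions nor the annotation or strand setting used. Columns were matched to samples by name, with 0 columns of other samples. Symbols, GC content and transcript length came from GENCODE M21 by ID (52081 of 57010 IDs, 91.4%; 43 of 43 members).

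Genes averaging 1 TPM or more over the libraries, 12862 in number, were tested as log2(TPM + 1); changes of genes of low level come out too small on it. Fgfr1 lies under this filter, and its values come from fits in which it was added to the tested genes. The test was limma's moderated one (version 3.58.1, R 4.3.3; lmFit and eBayes with trend) with group as the only term and Benjamini-Hochberg adjustment over all tested genes; "rose" and "fell" mean an adjusted p under 0.05. Ratios, motifs and exact permutation tests were computed in Python 3.11.15 with SciPy 1.17.1. The correction for GC content and length removed from each library a spline trend (4 degrees of freedom) of its deviations from the gene means, which left out 321 genes that have no GC value. The limma fit was tested on simulated log2 values with the same spread in both groups and no trend in GC content. Alternatives were other pseudocounts, filters, scalings and eBayes settings, library weights, the replicate number as a block, the GC correction and leaving out each library. The 43 genes and all lists were chosen with earlier results of these data known. All 43 may be named; of the other lists the 12 called genes of smallest adjusted p are named, 4 of the replication list, and 6 regulators whether called or not. Of the genes in these lists, 1 had no matching row and was not analysed here. Sequence shared with other genes was counted over 51-base stretches of annotated transcripts. Since depth is unknown, no counting interval was computed.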

Additional observations from a re-analysis of the deposited data

How the results depend on the processing

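Over 20 alternatives the 43 members gave 860 values, of which 731 stayed on the same side of the threshold, 54 newly passed it and 75 no longer did. Of the 9 called members 0 changed sign in any alternative. Of the 731 values 39 had changed sign, in 14 of the 34 uncalled members, where neither fit called the gene. Each of the 9 calls was lost on leaving out TPR-FGFR1 replicate 1 or any 1 empty vector library. The cause was not tested, except that such fits hold fewer libraries.

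Against 7 rises and 2 falls among the members, 2 rises and 1 fall were called without the filter on low values. There were 2 rises by eBayes without trend, and 18 rises and 8 falls with library weights. Over all tested genes, 620 rose and 526 fell of 26204 without the filter. The counts were 1159 and 1162 of 12862 by eBayes without trend, and 4096 and 3506 of 12862 with library weights. The replicate block gave 1 rise and 0 falls (at an unadjusted p under 0.05, 7 higher and 3 lower). With the GC correction as well, the block gave 2 rises and 3 falls. Over all tested genes the block gave 343 rises and 421 falls of 12862, and with the GC correction 765 and 1011 of 12541. Nothing in the labels pairs the libraries by number, and the deviations of same-numbered libraries from their group means were correlated at −0.193, −0.075 and −0.153. Falls numbered 7 with the GC correction and 8 with that correction without TPR-FGFR1 replicate 3. Leaving out 1 library gave 0 to 16 rises and 0 to 7 falls, the highest without TPR-FGFR1 replicate 3, and medians of 0.03 to 0.17.

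Among the other mitosis genes, against 10 rises and 12 falls, rises numbered 16 with quantile normalization, 44 with library weights, 2 with the block, 6 with the block and GC correction and 17 with the GC correction without TPR-FGFR1 replicate 3, and 0 to 39 on leaving out 1 library. Falls numbered 4 without the filter, 29 with library weights, 3 with the block and 27 with the GC correction. They numbered 30 with that correction without TPR-FGFR1 replicate 3, and 1 to 26 on leaving out 1 library. Over all tested genes quantile normalization gave 1748 rises of 12862. The GC correction gave 2018 falls of 12541, and without TPR-FGFR1 replicate 3 it gave 2001 rises and 2353 falls of 12546.

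Over all tested genes, 2600 were called. The count was 1146 of 26204 tested genes without the filter, 7602 with library weights and 764 with the block. It was 4354 with the GC correction without TPR-FGFR1 replicate 3, and 220 to 6396 on leaving out 1 library. Fgfr1, kept in every fit whatever the filter, no longer passed with a pseudocount of 0.1 (2.73), a filter of the other genes at 5 TPM (0.82), quantile normalization (0.70), the block (0.82) or without any 1 library (0.66 to 0.92). Exact tests of 3 against 3 libraries cannot go below 0.1, and depth is unknown, so counting error cannot be set beside these values.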
